A study of Arabidopsis thaliana with 24 samples.

Results

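The RNA-seq data describe 10 genes of the Arabidopsis phosphate-starvation response that replace membrane phospholipids or recover phosphate from organic compounds. The genes were taken by locus, and 6 act on membrane lipids (MGD2, MGD3, SQD1, SQD2, PLDZ2 and NPC4). The other 4 serve to recover phosphate from metabolites and nucleic acids (PAP17, PECP1, PPsPase1, also called PS2, and RNS1). These 4 are called genes of phosphate release here, although RNS1 is a ribonuclease and not a phosphatase. All 10 had values in shoots, among 19495 genes. In roots 9 had values, among 20336 genes, and PECP1 had none and was not analysed there. The study reports that genes of low CPM were filtered out, without naming PECP1. The 2 tissues together held 21245 genes.

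Col-0 seedlings were grown on agar with a diluted MS medium sufficient in phosphate, moved to medium with 2 mM TiO2 nanopowder (Ti) or without it (Ctrl), and collected after 10 or 3 days. Roots and shoots were sequenced separately, with 160 seedlings pooled for each library and 3 libraries for each of 8 groups: Ti and Ctrl roots at 10 days, Ti and Ctrl roots at 3 days, and the same 4 groups for shoots. All plants were wild type and no group was grown at low phosphate, so the genes were not compared here with plants starved of phosphate. The study asked which transcriptional responses accompany Ti treatment, phosphate nutrition among them.

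When phosphate is scarce, plants break down membrane phospholipids and fill their place with galactolipids and sulfolipids, which hold no phosphorus. They also make phosphatases and nucleases that help to free phosphate from stored and external organic compounds. Many of these genes are induced by the MYB factor PHR1, which binds a short element called P1BS, and they are used as indicators of the plant's phosphate status.

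On the TAIR10.1 assembly the lipid genes lie on 4 chromosomes. MGD2 (AT5G20410) lies at chr5:6896463-6898783 on the plus strand and MGD3 (AT2G11810) at chr2:4743162-4746813 on the plus strand, and both encode synthases of the galactolipid MGDG. SQD1 (AT4G33030, chr4:15935373-15937833, plus strand) and SQD2 (AT5G01220, chr5:86543-90117, minus strand) encode the enzymes of sulfolipid synthesis. PLDZ2 (AT3G05630, chr3:1635194-1640357, plus strand) encodes a phospholipase D and NPC4 (AT3G03530, chr3:842499-845096, minus strand) a phospholipase C, which remove the head groups of phospholipids. Among the genes of phosphate release, PAP17 (AT3G17790, chr3:6089381-6091231, plus strand) encodes an acid phosphatase and PECP1 (AT1G17710, chr1:6090405-6092027, minus strand) a phosphatase of the freed head groups. PPsPase1 (AT1G73010, chr1:27464528-27466348, minus strand) encodes a pyrophosphatase and RNS1 (AT2G02990, chr2:873506-874886, plus strand) a secreted ribonuclease.

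The element was searched for in the 1000 bases before each gene's start, as the letters GNATATNC, which read the same on both strands, in the TAIR10.1 genome with RefSeq gene positions. Of the 10 genes, 6 held at least 1 match and 4 (MGD3, SQD1, PAP17 and RNS1) held none in this window. PLDZ2 held 4 matches, NPC4 3, MGD2, PECP1 and PPsPase1 2 each, and SQD2 1, which makes 14 in all. Among 27443 promoter windows of the same length, 20.3% held at least 1 match and 2.78% at least 2, beside 5 of the 10 genes with at least 2. A match of letters is a description and not a binding site. The match nearest to the start of each gene is given here to set the shared element beside the expression values, with the 8 motif letters in capitals. The stretches read along the strand of the gene.
MGD2 (chr5:6896438-6896462, plus strand): tatatactactGAATATTCttttgt
SQD2 (chr5:90439-90468, minus strand): ttatgtgaagcGAATATTCattggaataga
PLDZ2 (chr3:1635003-1635032, plus strand): gtaaccaagttGCATATACacggcagggta
NPC4 (chr3:845297-845326, minus strand): cttgaaaaagtGAATATTCttgacacagac
PECP1 (chr1:6092371-6092400, minus strand): ataaataggtgGAATATTCtttttttttat
PPsPase1 (chr1:27466547-27466576, minus strand): tttgggtaacgGAATATTCttctcttattc

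The capitals of MGD2, SQD2, NPC4, PECP1 and PPsPase1 spell the same 8 letters in these stretches, and those of PLDZ2 differ. The match of MGD2 ended closest to its gene, 7 bases before the start, and the other match of MGD2 lay in a coding exon of the neighbouring locus AT5G20400. The remaining 13 matches lay between annotated genes.

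**Figure D1:**
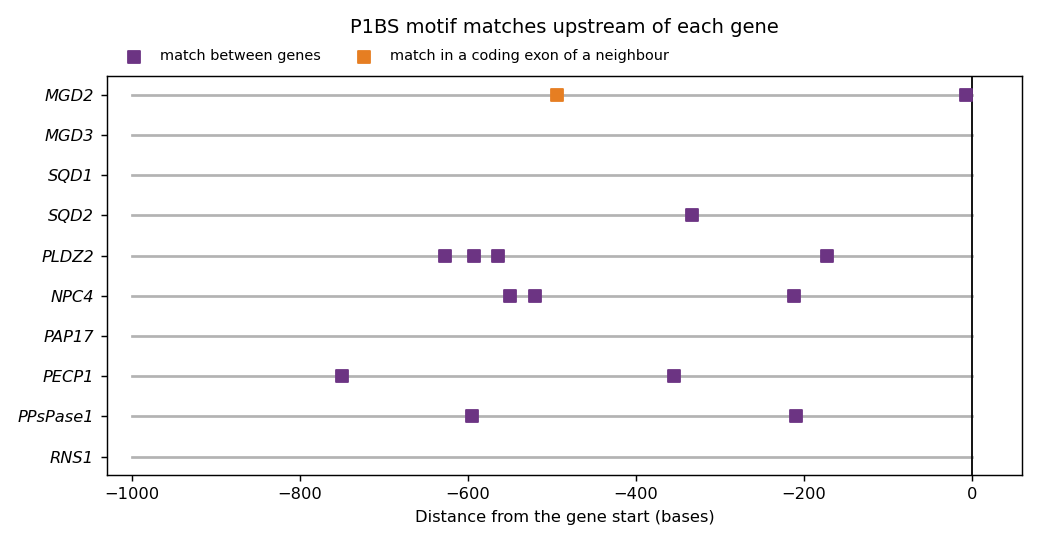
Positions of the P1BS matches in the 1000 bases before each gene; the horizontal axis is the distance from the gene start in bases and each square is 1 match. PLDZ2 carries 4 squares and NPC4 3, while the lines of MGD3, SQD1, PAP17 and RNS1 are empty.

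The values are log2 CPM (read counts relative to the size of the library) fitted by the study, with 1 value for each group and gene: the 3 library columns of a group were identical for all genes. The spread of each gene between replicates is therefore unknown and no p-value could be computed. The study gives a common biological coefficient of variation for each tissue, larger in shoots than in roots, which was not used here. A difference between Ti and Ctrl is given as log2F.C., the Ti value minus the Ctrl value, and calls of higher or lower need a value beyond 0.2. The study used this limit together with a false discovery rate, which could not be applied to 1 value per group, so the calls here rest on 0.2 alone. They are much looser than those of the study, which called far fewer genes in each tissue. At 10 days 9361 genes of roots and 8937 of shoots lay beyond 0.2. A call here is thus not a differentially expressed gene of the study. From the lowest value in each table, 1 CPM was put at 21.5 reads per library in roots and 22.6 reads per library in shoots, assuming that the fit had added its default prior count. From this depth each log2F.C. has a 95% counting interval (exact Clopper-Pearson), which covers counting error only and not the variation between plants. The limit that a count of 0 allows, 3 reads over the 3 libraries of a group, was 0.0466 CPM in roots and 0.0442 CPM in shoots, and every member lay above it in every group.

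The tissue labels were checked with marker genes. The summed level of 10 shoot markers lay between 53080 and 74138 CPM in shoots and between 616 and 1062 CPM in roots. The summed level of the root markers lay between 1256 and 1686 CPM in roots and between 8.05 and 19.0 CPM in shoots, where 8 of 10 had values. In bulk tissue, a change in the number of cells of a type and a change in RNA per cell cannot be told apart.

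Per kilobase of transcript, the sulfolipid genes stood at the top of the group. SQD2, which makes the sulfolipid from UDP-sulfoquinovose, was the highest of the 9 genes in all 4 root groups, between 16.95 and 21.0 CPM per kb. SQD1, which makes UDP-sulfoquinovose, was the highest of the 10 genes in all 4 shoot groups, between 38.2 and 59.9 CPM per kb. At the other end, RNS1, a secreted ribonuclease, reached the lowest level of any gene and group, 0.115 CPM per kb in Ctrl shoots at 10 days.

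The levels of several genes differed between the tissues, which were normalized separately and are set side by side without a test. NPC4, a phospholipase C, stood at 5.64 (Ti) and 6.81 CPM (Ctrl) in roots at 10 days and at 11.4 (Ti) and 11.5 CPM (Ctrl) at 3 days. In shoots NPC4 stayed between 0.717 and 0.848 CPM in the 4 groups. PAP17, a purple acid phosphatase, was near 11 CPM in all 4 groups at 3 days, with 11.6 (Ti) and 11.1 CPM (Ctrl) in roots and 10.4 (Ti) and 10.8 CPM (Ctrl) in shoots. At 10 days its tissues had parted, with 24.2 (Ti) and 27.6 CPM (Ctrl) in roots and 2.94 (Ti) and 1.37 CPM (Ctrl) in shoots. Of the genes with values in all 8 groups, MGD2, PLDZ2 and SQD2 had the smallest ratios of highest to lowest level. They lay between 2.24 and 4.33 CPM, between 2.80 and 4.49 CPM and between 37.6 and 69.1 CPM.

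**Figure D2:**
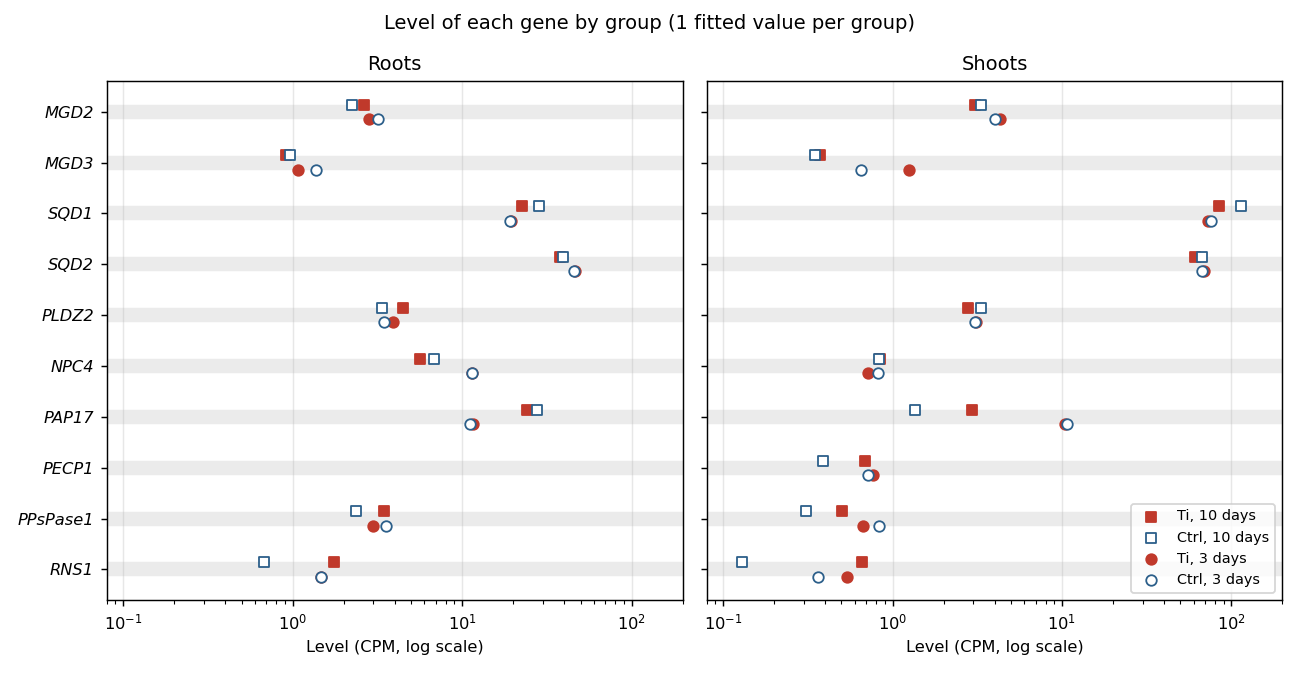
Level of each gene in CPM on a logarithmic axis, in roots (left) and shoots (right); filled symbols are Ti and open symbols Ctrl, squares 10 days and circles 3 days, each 1 fitted value. In shoots at 10 days the Ti squares of PAP17, PECP1, PPsPase1 and RNS1 stand to the right of the Ctrl squares, and that of SQD1 to the left.

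In shoots at 10 days, all 4 genes of phosphate release were higher in Ti beyond 0.2 and 0 of the 6 lipid genes were. Over all 10 genes, 4 were higher and 2 lower beyond 0.2, and 4 lay within it. Across all genes of shoots at 10 days 45.8% were beyond 0.2, 24.2% higher and 21.7% lower, so a count of 6 in 10 is not far from the background. PECP1, PPsPase1 and RNS1 lay at under 1 CPM, where 35.9% of genes were higher and 39.4% lower. The median log2F.C. was 0.96 for the 4 genes of phosphate release and −0.13 for the 6 lipid genes, beside 0.01 for all genes. The members were chosen with earlier results of these data known, and the difference between both sets was not tested.

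RNS1 had 0.663 CPM in Ti shoots and 0.129 CPM in Ctrl shoots at 10 days, a log2F.C. of 2.36 or 5.13-fold. These levels correspond to about 45 reads in Ti and 9 reads in Ctrl, and the counting interval of the log2F.C. ran between 1.27 and 3.54. The difference was larger than that of 99.5% of the genes at under 1 CPM. RNS1 is thus a gene of low level in shoots with a difference beyond its counting error.

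PAP17 had 2.94 CPM in Ti shoots and 1.37 CPM in Ctrl shoots, a log2F.C. of 1.11 (counting interval between 0.74 and 1.48) or 2.15-fold. This exceeded 99.0% of the genes at 1 to 10 CPM. Of the 31-base words of the PAP17 transcript, 5.65% also occur in AT3G17800, which overlaps it on the opposite strand. Whether strand was used in counting is not given in the sources used here, so reads of that stretch cannot be told apart. AT3G17800 had 155 CPM in Ti shoots and 114 CPM in Ctrl shoots at 10 days, and its part in the value of PAP17 was not tested.

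PECP1, a phosphatase of phosphoethanolamine and phosphocholine, had 0.689 CPM in Ti shoots and 0.391 CPM in Ctrl shoots at 10 days, about 47 and 27 reads. Its log2F.C. was 0.82, with a counting interval between 0.09 and 1.54. PPsPase1, a pyrophosphatase, had 0.504 CPM in Ti shoots and 0.307 CPM in Ctrl shoots, about 34 and 21 reads. Its log2F.C. of 0.71 had a counting interval between −0.13 and 1.55, which spans 0. At under 1 CPM 75.3% of all genes lay beyond 0.2 in this comparison, and 89.4% of them lay below PECP1 and 87.0% below PPsPase1, so for these genes the limit alone separates little.

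The lipid genes of shoots at 10 days did not share that direction. SQD1 had 84.6 CPM in Ti shoots and 114 CPM in Ctrl shoots, a log2F.C. of −0.44 with a counting interval between −0.49 and −0.39. Only 4.33% of the genes of its level class lay below this value. PLDZ2, a phospholipase D that yields phosphatidic acid, had 2.80 CPM in Ti and 3.32 CPM in Ctrl, with a log2F.C. of −0.24 and a counting interval between −0.53 and 0.04. The log2F.C. of the other 4 were −0.11 for MGD2, 0.09 for MGD3, −0.14 for SQD2 and 0.02 for NPC4, all within 0.2. The sulfolipid genes thus lay on the same side at unequal sizes, and the galactolipid synthases MGD2 and MGD3 lay close to 0.

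In these shoots the summed level of the 8 root markers was 11.9 CPM in Ti and 17.9 CPM in Ctrl. Of these markers 0 of 8 were higher and 5 of 8 lower beyond 0.2. Of all genes 21.7% were lower, and 39.4% of those at under 1 CPM. In Ctrl plants at 10 days, PAP17 was 20.2-fold higher in roots than in shoots, NPC4 8.14-fold, PPsPase1 7.68-fold, RNS1 5.22-fold and MGD3 2.75-fold. The part of root tissue in the shoot values was not tested.

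**Figure D3:**
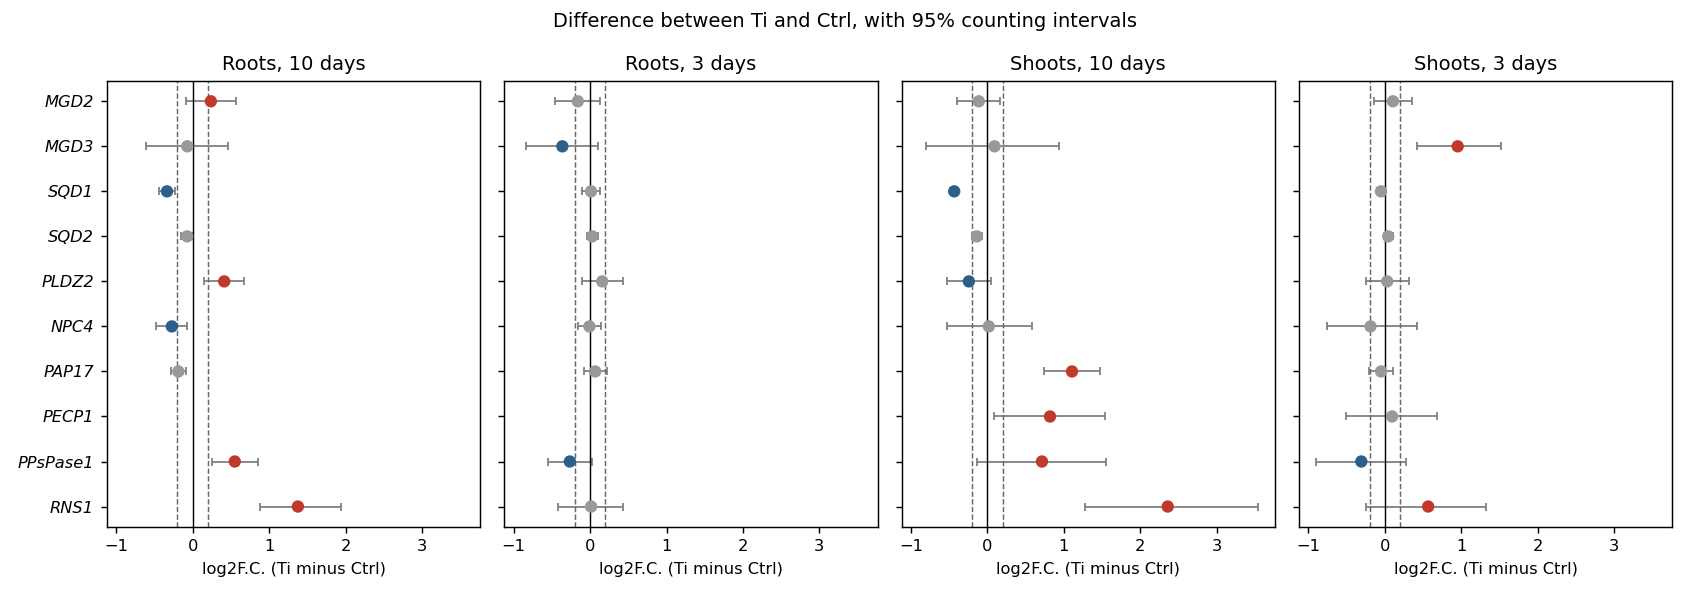
log2F.C. (Ti minus Ctrl) of each gene in 4 comparisons; points are the fitted values, whiskers the 95% counting intervals, dashed lines the limits of 0.2, red higher, blue lower and grey within the limits. RNS1 lies farthest to the right at 10 days in both tissues, at 1.38 in roots and 2.36 in shoots.

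In roots at 10 days, 4 of 9 genes were higher in Ti (MGD2, PLDZ2, PPsPase1 and RNS1) and 2 were lower (SQD1 and NPC4), with 3 within 0.2. Across all genes of roots at 10 days 46.0% were beyond 0.2, 23.7% higher and 22.3% lower. The median log2F.C. was −0.07 over the 9 genes and 0.02 over all genes. The members therefore stood on both sides, as did the genes of the whole table. Of the 6 beyond 0.2, 5 had counting intervals that left out 0. The share of all genes with such an interval was not computed.

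RNS1 had the largest difference here too, with 1.75 CPM in Ti roots and 0.675 CPM in Ctrl roots, about 113 and 43 reads. Its log2F.C. was 1.38 (counting interval between 0.88 and 1.94) or 2.60-fold, above 99.2% of the genes at 1 to 10 CPM. PPsPase1 had 3.46 CPM in Ti roots and 2.36 CPM in Ctrl roots, with a log2F.C. of 0.55 and a counting interval between 0.25 and 0.86. PAP17 was abundant in roots at 10 days but differed little, with 24.2 CPM in Ti and 27.6 CPM in Ctrl and a log2F.C. of −0.19 within the limit.

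Among the lipid genes of roots at 10 days, PLDZ2 had 4.49 CPM in Ti and 3.37 CPM in Ctrl, a log2F.C. of 0.41 with a counting interval between 0.15 and 0.67. MGD2 had 2.64 CPM in Ti and 2.24 CPM in Ctrl, and its log2F.C. of 0.24 had a counting interval between −0.09 and 0.57 that spans 0. These galactolipid and phospholipase genes were higher, while a sulfolipid gene and another phospholipase gene were lower. SQD1 had 22.5 CPM in Ti roots and 28.4 CPM in Ctrl roots, a log2F.C. of −0.34 (counting interval between −0.44 and −0.24), and 8.46% of the genes of its level class lay below it. NPC4 had 5.64 CPM in Ti and 6.81 CPM in Ctrl, a log2F.C. of −0.27 (counting interval between −0.48 and −0.07). NPC4 shares 2.21% of its 31-base words with its neighbour AT3G03540. MGD3 and SQD2 both had a log2F.C. of −0.07.

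The summed level of the 10 shoot markers in roots at 10 days was 1062 CPM in Ti and 875 CPM in Ctrl. Of these markers 6 of 10 were higher and 1 of 10 lower beyond 0.2, beside 23.7% of all genes higher and 22.3% lower. In Ctrl plants at 10 days, SQD1 was 4.03-fold higher in shoots than in roots, SQD2 1.70-fold and MGD2 1.48-fold, and their log2F.C. in these roots were −0.34, −0.07 and 0.24. The part of shoot tissue in the root values was not tested.

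After 3 days the genes differed less. In shoots, 2 of 10 were higher in Ti (MGD3 and RNS1) and 1 was lower (PPsPase1), beside 25.1% of all genes beyond 0.2 in that comparison, 13.1% higher and 12.0% lower. MGD3, a galactolipid synthase known for its induction by phosphate starvation, had 1.26 CPM in Ti shoots and 0.650 CPM in Ctrl shoots at 3 days, about 86 and 44 reads. Its log2F.C. of 0.95 had a counting interval between 0.43 and 1.53 and exceeded 95.3% of the genes of its level class. It was the only member at 3 days whose value lay beyond 0.2 with a counting interval that left out 0, in either tissue. The study, which tested between replicates, named neither MGD3 nor another member among its differentially expressed genes at 3 days.

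The other calls in shoots at 3 days rested on few reads. RNS1 had 0.537 CPM in Ti and 0.363 CPM in Ctrl, about 36 and 25 reads, and its log2F.C. of 0.57 had a counting interval between −0.25 and 1.32. PPsPase1 had 0.672 CPM in Ti and 0.832 CPM in Ctrl, with a log2F.C. of −0.31 and a counting interval between −0.90 and 0.28. Among genes at under 1 CPM 75.6% were beyond 0.2 in this comparison. The other 7 genes ran between −0.19 (NPC4) and 0.11 (MGD2), with SQD1 at −0.05 and PAP17 at −0.05. In these shoots the summed level of the 8 root markers was 8.05 CPM in Ti and 19.0 CPM in Ctrl. Of these markers 7 of 8 were lower beyond 0.2, beside 12.0% of all genes and 43.0% of those at under 1 CPM. The part of root tissue in the values was not tested.

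In roots at 3 days, 0 of 9 genes were higher and 2 were lower (MGD3 and PPsPase1), beside 16.9% of all genes beyond 0.2, 8.51% higher and 8.38% lower. MGD3 had 1.07 CPM in Ti and 1.38 CPM in Ctrl, a log2F.C. of −0.36 with a counting interval between −0.84 and 0.10. PPsPase1 had 2.97 CPM in Ti and 3.57 CPM in Ctrl, a log2F.C. of −0.26 with a counting interval between −0.55 and 0.02. Both intervals span 0, so no difference of a member was detectable beyond counting error in roots at 3 days. The remaining 7 ran between −0.16 (MGD2) and 0.16 (PLDZ2), and the log2F.C. of SQD1, SQD2, NPC4 and RNS1 were each within 0.03 of 0. The summed shoot markers were 752 CPM in Ti roots and 616 CPM in Ctrl roots at 3 days, with 7 of 10 higher beyond 0.2.

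**Figure D4:**
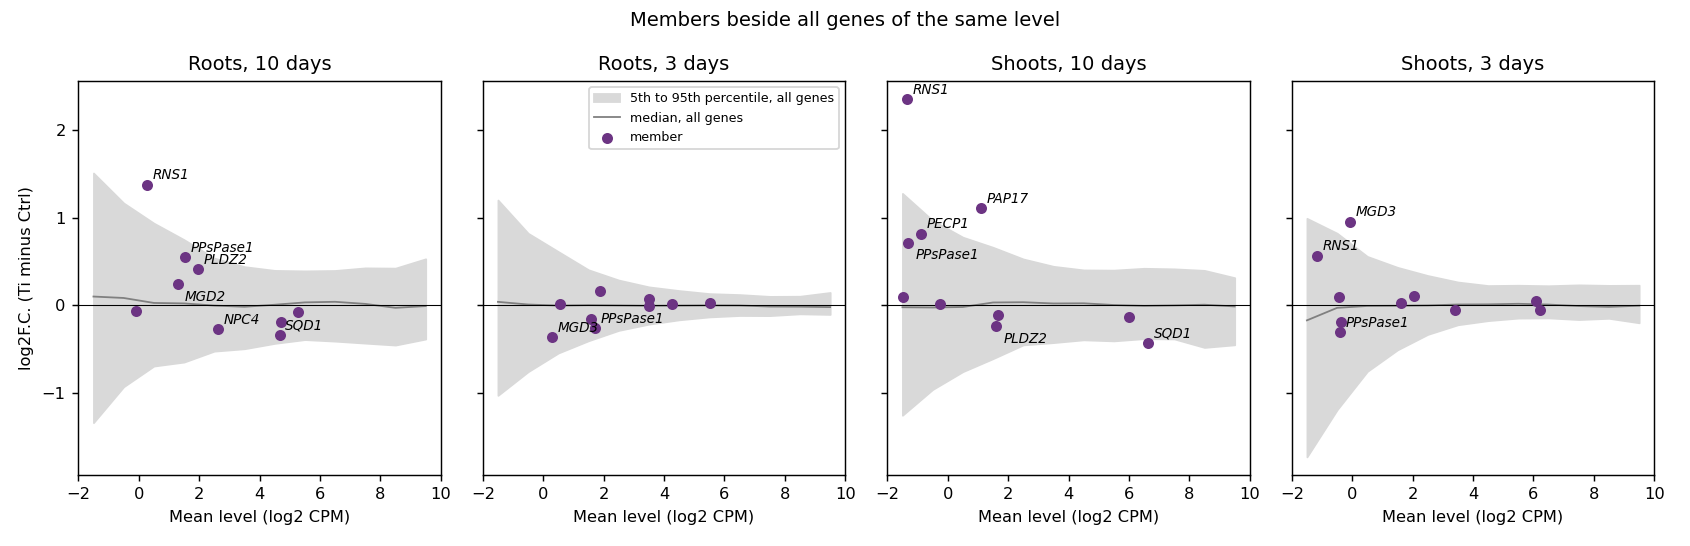
log2F.C. (Ti minus Ctrl) of the members (points) against their mean level in log2 CPM, over the median (line) and the range between the 5th and 95th percentiles (grey) of all genes of the same level, in 4 comparisons. The grey band widens towards low levels, and at 10 days RNS1 lies above it in both tissues while PPsPase1 of shoots, at 0.71, lies inside it.

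The same levels can be read over time. These differences use the groups already compared, so they are given side by side and not as further support. In Ctrl shoots, 1 of 10 genes was higher at 10 days than at 3 days and 6 were lower beyond 0.2, beside 67.7% of all genes beyond it, 33.0% higher and 34.6% lower. In Ti shoots 3 were higher and 4 lower, beside 70.0% of all genes, 35.0% higher and 34.9% lower.

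In Ctrl shoots, PAP17, RNS1 and PPsPase1 had the most negative differences with time among the 10 genes. RNS1 had 0.129 CPM at 10 days and 0.363 CPM at 3 days in Ctrl shoots, a log2 difference of −1.49, against a log2 difference of 0.30 in Ti shoots. PPsPase1 had log2 differences of −0.42 in Ti and −1.44 in Ctrl, and PECP1 of −0.15 in Ti and −0.87 in Ctrl. PAP17 was lower at 10 days in both treatments, with log2 differences of −1.82 in Ti and −2.98 in Ctrl. All 4 were thus lower beyond 0.2 at 10 days in Ctrl shoots, with a median of −1.46. PECP1, PPsPase1 and RNS1 lay at under 1 CPM, where 45.3% of genes were lower in that comparison. In Ti shoots 2 of the 4 were lower, 1 higher and 1 within the limit.

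Among the lipid genes of shoots, MGD3 had the largest difference with time, 0.374 CPM at 10 days and 1.26 CPM at 3 days in Ti (−1.75), and 0.350 CPM at 10 days and 0.650 CPM at 3 days in Ctrl (−0.89). The Ti and Ctrl levels of MGD3, apart at 3 days, were thus close at 10 days. SQD1 was higher at 10 days in both treatments, by a log2 difference of 0.21 in Ti and 0.60 in Ctrl. MGD2 was lower in both, at −0.50 in Ti and −0.28 in Ctrl. SQD2 and PLDZ2 stayed within 0.2 in both treatments, and NPC4 had 0.24 in Ti and 0.03 in Ctrl.

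In Ti roots, 5 of 9 genes were higher and 3 lower at 10 days than at 3 days, beside 69.0% of all genes beyond 0.2, 33.9% higher and 35.1% lower. In Ctrl roots 2 were higher and 6 lower, beside 61.1% of all genes, 30.4% higher and 30.6% lower. Several Ti values lay just past the limit, with 0.21 for SQD1 and PLDZ2, 0.22 for PPsPase1, 0.24 for RNS1 and −0.22 for MGD3, so that count depends on the scaling: it was 8 of 9 beyond 0.2 as deposited and 4 of 9 after scaling to the sum. PAP17 was higher at 10 days in both treatments, by a log2 difference of 1.06 in Ti and 1.32 in Ctrl, opposite in direction to shoots. NPC4 was lower in both, at −1.02 in Ti and −0.75 in Ctrl. RNS1 and PPsPase1 differed with time mainly in Ctrl roots, where RNS1 had −1.12 and PPsPase1 −0.60.

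**Figure D5:**
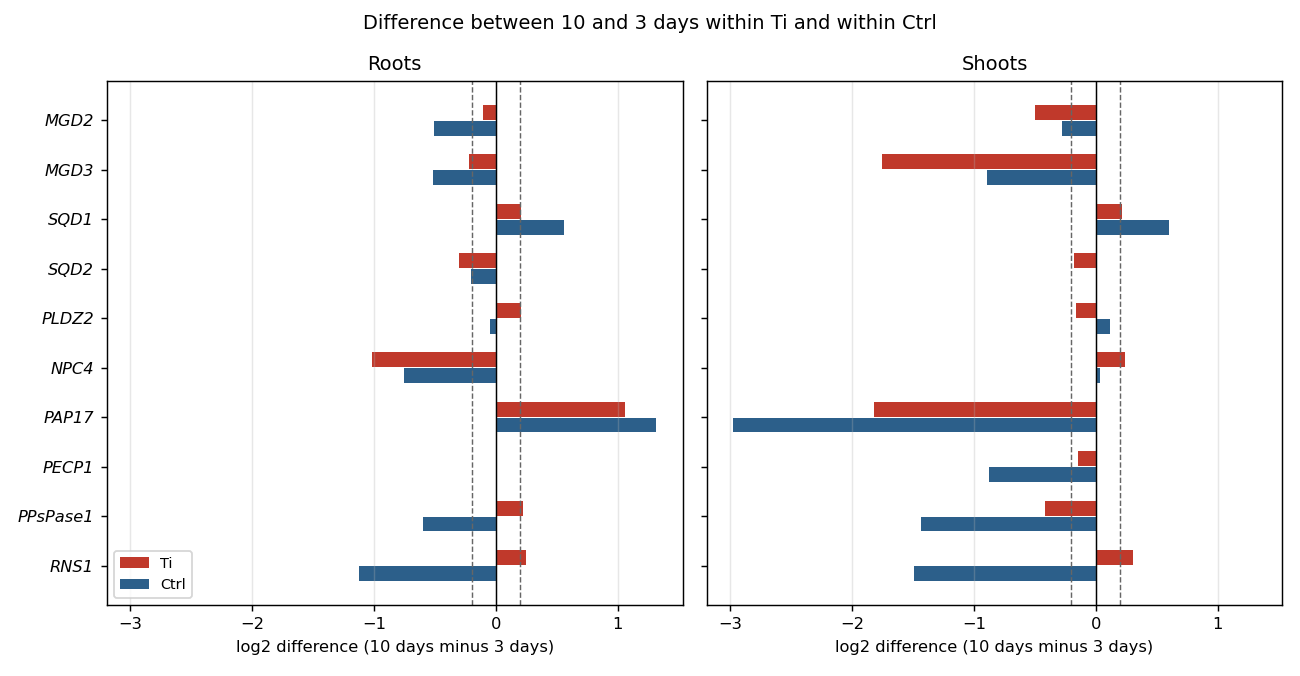
log2 difference between 10 and 3 days within Ti (red, upper bar) and within Ctrl (blue, lower bar) for each gene, in roots (left) and shoots (right), with the limits of 0.2 as dashed lines. PAP17 points to higher values in roots (1.06 in Ti, 1.32 in Ctrl) and to lower values in shoots (−1.82 in Ti, −2.98 in Ctrl).

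The genes were then set beside other genes of the same processes. Of 18 other lipid genes (other galactolipid synthases, phospholipases, lipid phosphatases and glycerophosphodiester phosphodiesterases), 16 had values in each tissue. In shoots at 10 days 3 of 16 were higher in Ti and 7 lower, with a median log2F.C. of −0.09. Across all genes 45.8% were beyond 0.2 there, 24.2% higher and 21.7% lower. GDPD1, a glycerophosphodiester phosphodiesterase, had 11.4 CPM in Ti shoots and 5.33 CPM in Ctrl shoots (log2F.C. 1.10), while its relative GDPD2 had 43.2 CPM in Ti and 80.2 CPM in Ctrl (−0.89). NPC1 was higher (0.36) and GDPD6 lower (−0.85). The lipid genes outside the 10 stood on both sides, as did the genes of the whole table.

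In roots at 10 days 3 of the 16 were higher and 5 lower, beside 46.0% of all genes beyond 0.2. Of the 16, NPC2 was at 0.39, PAH2, a phosphatidate phosphatase, at 0.30, NPC6 at −0.90 and GDPD2 at −0.79. At 3 days the counts were 1 higher and 2 lower in roots (NPC2 0.47, GDPD3 −0.36, MGD1 −0.22). In shoots they were 0 higher and 2 lower (GDPD6 −0.87, NPC3 −0.26), and any part of root tissue in these values was not tested. The shares of all genes beyond 0.2 at 3 days were 16.9% in roots and 25.1% in shoots. GDPD2 was therefore lower in Ti at 10 days in both tissues, and GDPD6 was lower in shoots at both times.

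Of 31 other scavenging genes, mostly purple acid phosphatases with some nucleases, 21 had values in roots and 20 in shoots. In shoots at 10 days 3 of 20 were higher in Ti and 5 lower, with a median of −0.01. Across all genes 24.2% were higher and 21.7% lower. The genes of phosphate release had 4 of 4 higher, with PECP1, PPsPase1 and RNS1 at under 1 CPM. That the lists differ was not tested. PAP29 (0.32) and PAP13 (0.25) were higher, and PAP8 (−0.66) and PAP9 (−0.27) were lower. PAP8 had 2.33 CPM in Ti shoots and 3.67 CPM in Ctrl shoots, beside 132 CPM in Ti roots and 110 CPM in Ctrl roots. PAP9 had 3.97 CPM in Ti shoots and 4.80 CPM in Ctrl shoots, beside 25.9 CPM in Ti roots and 25.7 CPM in Ctrl roots. Any part of root tissue in these shoot values was not tested. In roots at 10 days 4 of 21 were higher and 4 lower, beside 46.0% of all genes beyond 0.2. There PAP10, a root-surface acid phosphatase, had 20.0 CPM in Ti and 37.8 CPM in Ctrl (−0.92), with PAP24 at −0.58, the nuclease BFN1 at 0.40 and PAP22 at 0.30.

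At 3 days the scavenging list had 1 higher and 1 lower of 21 in roots (PAP3 0.31, PAP29 −0.24), beside 16.9% of all genes beyond 0.2. It had 3 higher and 1 lower of 20 in shoots (PAP16 0.38, PAP13 0.29, PAP8 −0.21), beside 25.1% of all genes. Any part of root tissue in these shoot values was not tested.

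Of 12 genes of phosphate signalling and uptake, 10 had values in each tissue. SPX1, a phosphate sensor that restrains PHR1, had 6.51 CPM in Ti roots and 14.3 CPM in Ctrl roots at 10 days (−1.14), and 3.95 CPM in Ti shoots and 2.11 CPM in Ctrl shoots (0.90). PHT1;4, a phosphate transporter, had 43.4 CPM in Ti roots and 87.7 CPM in Ctrl roots at 10 days (−1.02). The list had 0 higher and 4 lower of 10 in roots at 10 days, beside 46.0% of all genes beyond 0.2. It had 1 higher and 4 lower in shoots, beside 45.8% of all genes. In those shoots the transporter gene PHT1;1 was at −1.13 and the non-coding RNA AT4 at −0.39. PHT1;1 had 506 CPM in Ti roots and 662 CPM in Ctrl roots at 10 days. Its shoot levels were 3.81 CPM (Ti) and 8.35 CPM (Ctrl), and the summed root markers in these shoots were 11.9 CPM in Ti and 17.9 CPM in Ctrl. Their part in the shoot value of PHT1;1 was not tested. SPX1 in roots at 10 days lay on the same side as SQD1 and NPC4 and on the opposite side to MGD2, PLDZ2, PPsPase1 and RNS1.

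At 3 days the signalling list had 2 higher and 0 lower in roots (SPX1 0.41, PHT1;4 0.27), beside 16.9% of all genes beyond 0.2. It had 1 higher and 3 lower in shoots, beside 25.1% of all genes. There PHT1;4 was at 0.24, PHT1;1 at −1.32 and PHO1, which exports phosphate to the xylem, at −0.36. In those shoots PHT1;1 had 3.23 CPM in Ti and 8.07 CPM in Ctrl and PHO1 13.9 CPM in Ti and 17.9 CPM in Ctrl, beside summed root markers of 8.05 CPM in Ti and 19.0 CPM in Ctrl. In roots at 3 days PHT1;1 had 601 CPM in Ti and 576 CPM in Ctrl, and PHO1 424 CPM in Ti and 418 CPM in Ctrl. The part of root tissue in these shoot values was not tested. SPX1 and PHT1;4 were therefore higher in Ti roots at 3 days and lower in Ti roots at 10 days, a difference between the times that was not tested.

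The matches of the P1BS element were set beside the differences only as a description. In shoots at 10 days, the 6 genes with a match had log2F.C. of −0.24 (PLDZ2), 0.02 (NPC4), −0.11 (MGD2), 0.82 (PECP1), 0.71 (PPsPase1) and −0.14 (SQD2). The 4 genes with no match had 0.09 (MGD3), −0.44 (SQD1), 1.11 (PAP17) and 2.36 (RNS1) there. In roots at 10 days, those with a match had 0.41 (PLDZ2), −0.27 (NPC4), 0.24 (MGD2), 0.55 (PPsPase1) and −0.07 (SQD2), and those with none had −0.07 (MGD3), −0.34 (SQD1), −0.19 (PAP17) and 1.38 (RNS1). Higher and lower values thus stood in both sets.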

How the data were processed

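RNA of roots and shoots was measured in 24 libraries, 3 for each of 8 groups, from TRIzol extracts sequenced as paired-end Illumina libraries. The authors checked and trimmed the reads (FastQC 0.11.9, Trim Galore 0.6.6) and assigned them to Araport11 transcripts with kallisto 0.44.0. They brought the transcript-level estimates into edgeR with tximport and fitted each tissue separately. Each locus carries the name of 1 gene model, and whether its transcripts were summed is not stated. The values deposited by the authors are log2 CPM of this fit, 1 per group and gene. The lowest value is 0.00582 CPM in roots and 0.00552 CPM in shoots, from which the depth was inferred.

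Values were read with Python 3.11.15, pandas 2.3.3 and scipy 1.17.1. Each log2F.C. was computed over the whole table. A check on simulated counts changed 200 genes at 1 CPM or more by a log2 of 1, with counting noise only. All 200 were found in each comparison. A change of that size lies far beyond 0.2, so the check does not bear on values near 0.2 or at under 1 CPM. Genes were matched by locus, and levels per kb used the transcript of the gene model named in the table, from RefSeq on TAIR10.1. Level classes are under 1, 1 to 10, 10 to 100 and at least 100 CPM, by the mean of both groups. A test with limma, planned for the case that columns of a group differed, could not be run. From each list of other genes, up to 2 genes per direction and comparison are named, with the largest log2F.C. beyond 0.2 at a mean of at least 1 CPM. Alternatives were pseudocounts of 0.1 and 1 CPM, a minimum mean of 1 CPM, scaling to the median or the sum, quantile normalization and a limit of 0.5. The members and lists were chosen with earlier results of these data known.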

Additional observations from a re-analysis of the deposited data

Results flagged for a closer look

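MGD3 at 3 days had a log2F.C. of −0.36 in roots and 0.95 in shoots, so the Ti value lay below Ctrl in roots and above it in shoots. The difference between the tissues was not tested, and the root value has a counting interval that spans 0.

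PLDZ2 at 10 days had a log2F.C. of 0.41 in roots and −0.24 in shoots. This difference was not tested, and the shoot value has a counting interval that spans 0.

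PPsPase1 had a log2F.C. of 0.55 at 10 days and −0.26 at 3 days in roots, and of 0.71 at 10 days and −0.31 at 3 days in shoots. The difference between the times was not tested in either tissue, and only the value of roots at 10 days has a counting interval that leaves out 0.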

How the results depend on the processing

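No paired analysis was possible because the 3 columns of a group hold 1 value, and for the same reason leaving out a replicate could not be run. With a pseudocount of 1 CPM the members beyond 0.2 numbered 1 in roots at 3 days (2 as deposited), 1 in shoots at 3 days (3 as deposited), 3 of the time differences in Ti roots (8 as deposited) and 4 in Ti shoots (7 as deposited). With a mean of at least 1 CPM they numbered 3 in shoots at 10 days (1 higher, PAP17, and 2 lower, beside 4 higher and 2 lower as deposited, since PECP1, PPsPase1 and RNS1 were left out), 0 in shoots at 3 days, and 3 in each of the time differences of Ti and Ctrl shoots, since fewer genes were left. Time differences in Ti roots numbered 5 after scaling to the median and 4 after scaling to the sum. With a limit of 0.5 the members beyond it numbered 2 in roots at 10 days (11.9% of all genes) and 0 in roots at 3 days (4.08%). In shoots they numbered 4 at 10 days (12.5%) and 2 at 3 days (6.72%), of which only PAP17 had a mean of at least 1 CPM. For time they numbered 2 in Ti roots (34.6%), 2 in Ti shoots (37.9%), 7 in Ctrl roots (28.0%) and 6 in Ctrl shoots (35.2%). Apart from the fewer genes and the stricter limit, the cause was not tested.

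The Ti to Ctrl differences of single members gave 217 values under the alternatives, of which 0 reversed the sign of a called value, 1 changed sign within 0.2 (NPC4 in shoots at 10 days, 0.02 as deposited and −0.03 after scaling to the sum) and 6 crossed 0.2: MGD3 in roots at 3 days (−0.20), MGD2 in roots at 10 days (0.17, and 0.19 after quantile normalization), PPsPase1 and RNS1 in shoots at 3 days (−0.13 and 0.17) and PLDZ2 in shoots at 10 days (−0.18), the others with a pseudocount of 1 CPM. That pseudocount also lowered RNS1 at 10 days to 0.56 in shoots and 0.72 in roots, PAP17, PECP1 and PPsPase1 in shoots at 10 days to 0.74, 0.28 and 0.20, and MGD3 in shoots at 3 days to 0.45. Over all genes of shoots at 10 days, 52.7% of those beyond 0.2 were higher in Ti as deposited and 41.8% after scaling to the sum. Depth limits the genes at under 1 CPM, where few reads stand behind a value.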
